A study of Rattus norvegicus with 24 samples.

Results

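The 10 genes described here, whose loss causes polycystic kidney or liver disease, were followed through the kidneys of cystic rats given human cells, conditioned medium or nothing. They were chosen by gene symbol as genes of these diseases, with earlier results of these data known, and are Pkd1, Pkd2 and Pkhd1, which encode the membrane proteins polycystin-1, polycystin-2 and fibrocystin, and Ganab, Prkcsh, Alg8, Sec61b, Sec63, Dnajb11 and Dzip1l, which act in the making or the ciliary transport of such proteins. Of the 10 genes, 9 were among the 17334 genes of the deposited tables, and the same 9 were among the 12778 genes with enough reads to be tested. Pkhd1 was not analysed here.

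Polycystin-1 is a large receptor-like protein and polycystin-2 is a cation channel, and the pair assembles on the primary cilium of tubule cells. Both are made at the endoplasmic reticulum (ER), where they are pushed through the Sec61 translocon, receive N-linked sugar chains, and are folded with the help of glucosidase II and chaperones. Loss of one of these maturation steps lowers the amount of working polycystin-1 that reaches the cilium, which is why such genes cause cystic kidneys or livers, while DZIP1L works at the ciliary transition zone, the gate at the base of the cilium.

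RNA sequencing was done on whole left kidneys of 24 male PKD/Mhm (Cy/+) rats, 8 months old, with 6 animals in each of 4 groups. All 24 were labelled as heterozygous for the Cy allele, a missense change in Anks6, and kidneys labelled as without it were not analysed here. Control animals (Ctrl) were untreated. CoCM animals received medium conditioned by human skin-derived ABCB5+ stromal cells grown with macrophages, and its route was intraperitoneal in one account of the study and i.v. in another. The other groups received the human cells themselves, into the peritoneum (i.p. ABCB5+) or into a vein (i.v. ABCB5+), and treatment was monthly for 6 months. Carriers were picked out by palpation of the abdomen, and the 4 groups were separate animals. Control animals bore the numbers 1 to 24 and treated animals 26 to 43, so the order of the animals and treatment cannot be told apart in a comparison with Ctrl.

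Promoters of 4 of the genes are shown here, each from 150 bases before the start of the listed transcript to 10 bases after it. Pkd2 and Sec63 were chosen as the pair that varied together most closely in log2 CPM among the 20 animals other than animals 36 to 39. Over all animals their Spearman rho was 0.11, and with a trend of transcript length removed they were not the closest pair. Dnajb11 and Sec61b were chosen because they code for ER proteins with unlike promoters. All sequences are from RefSeq on the GRCr8 assembly, which is not the rn6 build of the counts, and promoters were found there for all 10 genes. Capitals mark the ER stress response element II, the CCAAT box, which is named by its letters, or the GC box, spelled GGGCGG, on either strand. Element II is a CCAAT box read on the other strand, then any 1 base and CCACG.
Pkd2 (chr14:5585131-5585290, minus strand): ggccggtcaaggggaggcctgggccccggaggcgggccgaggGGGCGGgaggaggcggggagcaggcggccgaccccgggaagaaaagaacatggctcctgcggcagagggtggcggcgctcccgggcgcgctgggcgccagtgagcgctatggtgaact
Sec63 (chr20:47827141-47827300, plus strand): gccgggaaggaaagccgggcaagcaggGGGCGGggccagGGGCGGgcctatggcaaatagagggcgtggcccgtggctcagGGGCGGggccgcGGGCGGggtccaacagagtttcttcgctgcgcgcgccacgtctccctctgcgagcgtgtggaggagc
Dnajb11 (chr11:91672791-91672950, minus strand): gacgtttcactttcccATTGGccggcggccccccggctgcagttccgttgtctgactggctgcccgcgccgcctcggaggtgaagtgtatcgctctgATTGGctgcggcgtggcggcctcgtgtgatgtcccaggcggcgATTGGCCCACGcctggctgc
Sec61b (chr5:66569034-66569193, plus strand): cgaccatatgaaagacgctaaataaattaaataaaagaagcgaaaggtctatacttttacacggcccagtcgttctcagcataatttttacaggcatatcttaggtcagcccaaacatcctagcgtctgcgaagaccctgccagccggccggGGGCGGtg

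Motifs were counted in the whole 300 base window of each promoter. A GC box stood in 6 of the 10 promoters, against 33.1% of all 33469 promoters of that length, and a CCAAT box in 5 of 10, against 37.5%. The ER stress response element II is a motif known from genes switched on when proteins misfold in the ER, and Dnajb11 was the single gene of the 10 to hold a match, from 10 bases before the start to the first base of the transcript. The match contains a CCAAT box read on the other strand, and 0.0508% of all promoters held one. The longer ER stress response element (CCAAT and CCACG with 9 bases between) was found in 0 of the 10 windows and in 0.0657% of all promoters. GC content over the window was 72.3% for Pkd2, 68.7% for Sec63, 65% for Dnajb11 and 45% for Sec61b, where the median of all promoters was 51.7%. A match of letters is a description and not a bound site.

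Library totals were 9304630 to 14125457 estimated counts, and the counts behind each gene were 104 to 211 for Alg8, the least covered, and 3458 to 5062 for Ganab, the most covered. Between samples, values are given as CPM, counts set to the same library total with TMM factors. Kidney markers were present in all 24 libraries, with sums of 2430 to 15700 CPM for 8 proximal tubule genes and 1870 to 12300 CPM for 5 genes of the thick ascending limb, while 4 liver markers summed to at most 5.21 CPM. In all, 4 animals stood apart from the other 20 on the first principal component, which held 56.3% of the variance: CoCM 39, i.p. 38 and i.v. 36 and 37. In these 4, the sum of 5 injured tubule markers was 414 to 738 CPM, against 7030 to 13800 CPM in the other 20. In whole kidney RNA, fewer cells of a type and less RNA per cell cannot be told apart.

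Per length of transcript, 4 of the 6 genes that act in the ER were the most abundant of the 9, while Pkd1 and the ER gene Alg8 were the least. Levels were compared as TPM (transcript abundance scaled to length and to a common library total). The medians over 24 animals were 224 TPM for Prkcsh, the beta subunit of glucosidase II, and 220 TPM for Sec61b, the beta subunit of the translocon. Ganab, the catalytic alpha subunit of glucosidase II, followed at 122 TPM, and Dnajb11, a co-chaperone of the ER chaperone BiP, at 92.3 TPM. These 4 lay between the 89.6 and 96.1 percentile of the genes in the files.

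Lower levels were found for Pkd2, with a median of 36.3 TPM, and for Sec63, a translocon partner that recruits BiP, with 30.9 TPM. Dzip1l had 18.1 TPM, Alg8, a glucosyltransferase that builds the sugar precursor, 9.4 TPM, and Pkd1 8.85 TPM, at the 49.3 percentile. The order was not firm throughout. Prkcsh was above Sec61b in 14 of 24 animals, Pkd2 above Sec63 in 20, and Alg8 above Pkd1 in 15, and the ranges of those neighbours overlapped. The other neighbours kept their order in 24 of 24 animals, though the ranges of Ganab and Dnajb11 overlapped as well. Without the 4 animals that stood apart, Pkd1 ranked 8 and Alg8 ranked 9.

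**Figure D1:**
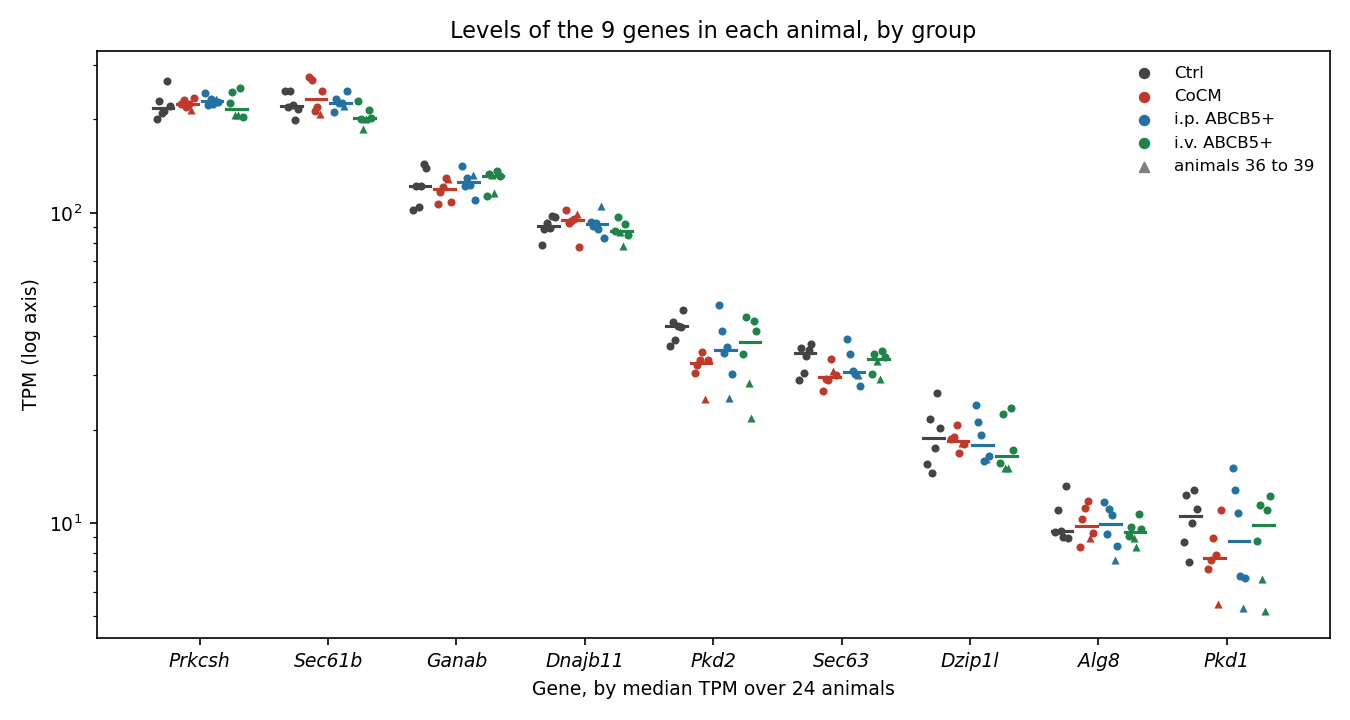
TPM of the 9 genes in each of 24 animals on a log axis, by group (6 animals each), with a bar at the group median and triangles for animals 36 to 39. Prkcsh and Sec61b lie highest, with medians of 224 and 220 TPM, and Alg8 and Pkd1 lowest, with medians of 9.4 and 8.85 TPM.

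The ratios between partners of a complex overlapped between the groups. The ratio of Pkd2 to Pkd1 averaged 4.18 ± 0.65 in control kidneys and 4.07 ± 0.579 after conditioned medium (TPM ratio, mean ± SD, n = 6 each). After cells it averaged 4.1 ± 0.948 for the i.p. route and 4 ± 0.311 for the i.v. route. The ratio of Prkcsh to Ganab, the subunits of glucosidase II, was 1.84 ± 0.151 in Ctrl and between 1.76 and 1.91 in the means of the treated groups. The ratio of Sec61b to Sec63 was 6.71 ± 1.29 in Ctrl and 8.04 ± 1.45 in CoCM, and the animals of the 2 groups overlapped between 6.5 and 8.54.

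The first comparison asks whether conditioned medium changed these genes. Against Ctrl, 0 of the 9 genes passed an adjusted p of 0.05 in edgeR (background 0.00783% of 12778 genes), and 1 passed at an unadjusted p of 0.05 (background 11.9%). The genes leaned in both directions, with 6 higher and 3 lower (48.6% of all genes tested were lower) and a median log2 fold change of 0.07, against 0.01 over all genes tested.

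Pkd2 was the gene that passed unadjusted. Its lowest, median and highest values were 135, 146 and 170 CPM in Ctrl and 104, 122 and 129 CPM in CoCM. All 6 CoCM animals thus lay below the lowest control, which 0.524% of all genes tested did. The log2 fold change was -0.32 ± 0.098 (SE), a fold of 0.803, with an adjusted p of 0.29 in edgeR. The exact two-sided permutation test gave 0.00216, the smallest p that the divisions of 12 animals can give, and 16.9% of all genes tested had an exact p under 0.05 in this comparison. Sample quality weights, which give less weight to libraries far from their group, put the gene past the threshold, with -0.28 and an adjusted p of 0.0461, and the adjusted p ran from 0.106 to 0.478 under the 9 other settings.

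Pkd1 had 82.2, 109 and 119 CPM in Ctrl and 66.7, 82.9 and 119 CPM in CoCM. CoCM animals 26, 27, 35, 34 and 39 lay under the control mean, while animal 40 was at the level of the highest control. The log2 fold change was -0.26 ± 0.18, with a 95% confidence interval from -0.63 to 0.11 and an adjusted p of 0.518. Reads of Pkd1 and its neighbour Tsc2, whose spans overlap in RefSeq, could be exchanged, since strand in the counting is not given in the sources used here.

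Among the glycan genes, Prkcsh had 286, 297 and 320 CPM in Ctrl and 309, 324 and 338 CPM in CoCM. All 6 CoCM animals were above the control mean and 3 were above the highest control. The log2 fold change was 0.12 ± 0.075, with an adjusted p of 0.486 in edgeR and an exact permutation p of 0.00866. Pkd2 and Prkcsh were thus the 2 of 9 genes with an exact p under 0.05 in CoCM, where 16.9% of all genes tested had one, and 0 of 9 had one in each of the other 3 comparisons so tested. On log2(TPM + 1) the difference of Prkcsh was 0.01, with an adjusted p of 0.929 in limma. On that scale the median of all genes tested was itself shifted to -0.1. Ganab and Alg8 differed by 0.07 ± 0.095 and 0.09 ± 0.096, with ranges that overlapped those of Ctrl.

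At the translocon, Sec61b had 47.5, 58.5 and 72.8 CPM in Ctrl and 60, 66.3 and 82.5 CPM in CoCM. Of the 6 CoCM animals, 5 lay above the control mean and 2 above the highest control, and the log2 fold change was 0.19 ± 0.11 with an adjusted p of 0.486. Sec63, its partner for import, had 138, 143 and 160 CPM in Ctrl and 128, 134 and 155 CPM in CoCM. Here 4 CoCM animals lay below the lowest control and 2 within the control range, and the log2 fold change was -0.08 ± 0.069 with an adjusted p of 0.604.

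Dnajb11 had 104, 113 and 125 CPM in Ctrl and 102, 126 and 147 CPM in CoCM. The groups overlapped, with 3 CoCM animals above the highest control and 1 below the lowest. The log2 fold change was 0.16 ± 0.098 with an adjusted p of 0.491. For Dzip1l it was 0.07 ± 0.096 with an adjusted p of 0.743, and all 6 CoCM animals lay within the range of Ctrl, from 39.5 to 60.3 CPM.

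**Figure D2:**
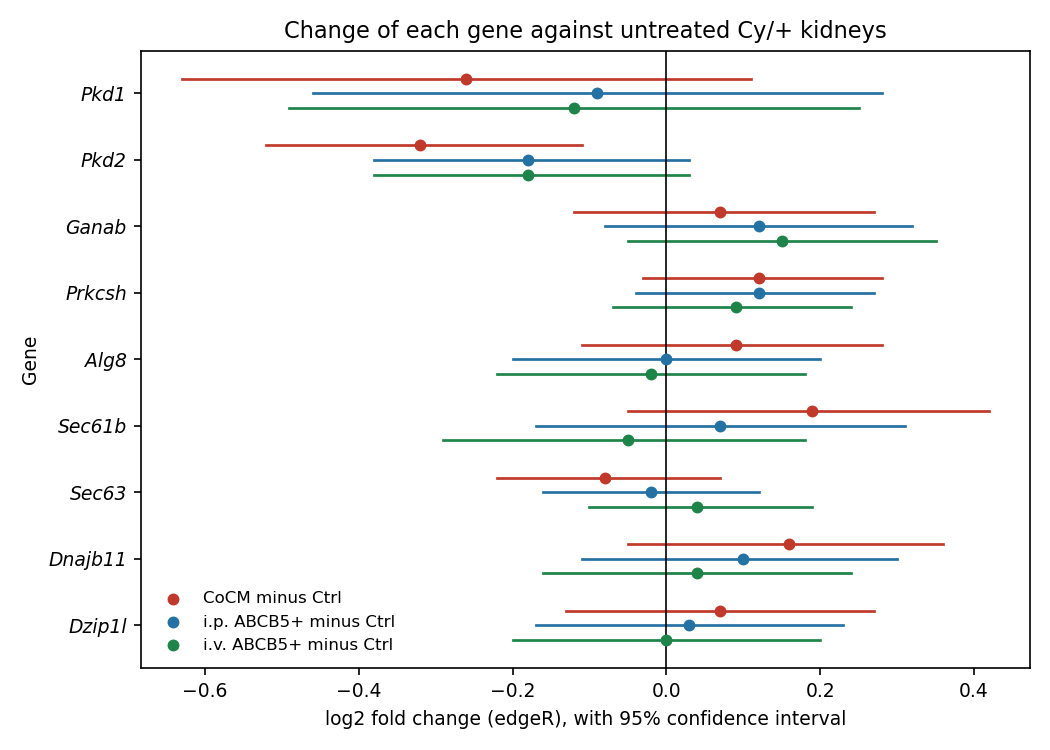
Log2 fold change of each gene against Ctrl on the horizontal axis, with its 95% confidence interval, for conditioned medium and both routes of cells (edgeR, 6 animals a group). The interval of Pkd2 in CoCM, from -0.52 to -0.11, is the one of 27 that does not reach 0.

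After cells were given i.p., the 9 genes lay close to Ctrl. Of these, 0 passed either an adjusted p of 0.05 or an unadjusted one in edgeR (background 0% and 1.77%), and log2 fold changes ran from -0.18 for Pkd2 to 0.12 for Ganab and Prkcsh. Without i.p. animal 38, Ganab was at 0.05 and Prkcsh at 0.06. Pkd2 had 110, 133 and 160 CPM in i.p. ABCB5+, so that 3 animals were below the lowest control and 3 within the control range. Its difference was -0.18 ± 0.098, with an adjusted p of 0.978 in edgeR and an exact permutation p of 0.0649 (background 2.35% under 0.05), and it was -0.12 without animals 36 to 39. Relative to its mean, Pkd1 had the widest spread of the 9 genes here, with an SD of 30.5% of the mean. It had 67.8, 96 and 140 CPM, where 3 animals were below the lowest control, 2 above the highest and 1 between. The log2 fold change of Pkd1 was -0.09 ± 0.18.

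After cells were given i.v., Pkd2 had 102, 137 and 151 CPM. Its difference from Ctrl was -0.18 ± 0.098, with an adjusted p of 0.673 in edgeR and an exact permutation p of 0.102 (background 3.39% under 0.05), and 3 animals were below the lowest control. That value was smaller in size without i.v. animals 36 and 37, which stood apart. It was -0.15 without 36, -0.12 without 37 and -0.06 without animals 36 to 39, where Sec61b was at -0.12 and Alg8 at -0.08. With quality weights the difference of Pkd2 was -0.05. In this comparison 0 of the 9 genes passed an adjusted or an unadjusted p of 0.05 (background 0% and 5.78%). Ganab was at 0.15 ± 0.095, where 329, 359 and 430 CPM compared with 307, 332 and 382 CPM in Ctrl, and its difference was 0.1 without animal 36 or 37 and 0.04 without animals 36 to 39. Pkd1 was at -0.12 ± 0.18 and the other 6 genes lay between -0.05 and 0.09. The 3 comparisons with Ctrl share the 6 control animals, so their values are not independent of each other.

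The routes were then compared directly. Between i.p. and i.v. ABCB5+, 0 of the 9 genes passed an adjusted or an unadjusted p of 0.05 (background 0% and 2.14%). The log2 fold changes ran from -0.07 for Sec63 to 0.12 for Sec61b, and the 95% confidence intervals stayed between -0.34 and 0.39. The difference of Pkd2 had an interval from -0.2 to 0.2, and 0 of the 9 exact permutation p-values were under 0.05 (background 1.78%).

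Conditioned medium was also set against the mean of both cell groups. Again 0 of 9 genes passed an adjusted or an unadjusted p of 0.05 (background 0% and 7%), so Pkd2 was not shown to differ between medium and cells, with -0.14 ± 0.085 and an adjusted p of 0.732. Pkd1 had -0.16 ± 0.16 and Sec61b 0.18 ± 0.098. With 1 animal left out, Pkd1 ran from -0.26 to -0.08 and Sec61b from 0.12 to 0.22. Over the 4 groups together, Pkd2 was the 1 gene under an unadjusted p of 0.05, with an adjusted p of 0.817, and the other 8 had adjusted p from 0.817 to 0.944 (background 4.71% unadjusted and 0% adjusted).

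The 9 transcripts differ much in length, and differences in CoCM followed length over all genes. Transcript length was taken from the ratio of count to TPM and expressed relative to the median gene. Pkd1 was 7.09 times as long as the median gene, Sec63 2.94, Pkd2 2.42, Ganab 1.91 and Dzip1l 1.76 times. Alg8, Prkcsh and Dnajb11 were at 0.924, 0.92 and 0.867, and Sec61b at 0.183 was shorter than all but 2.39% of genes. Each length was nearly constant over animals, with 7.04 to 7.11 for Pkd1.

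In the comparison of CoCM with Ctrl, the median log2 fold change of all genes was 0.13 in the shortest and -0.13 in the longest of 5 equal classes of length. Spearman's rho across genes, which are not independent replicates, was -0.31. For i.p. ABCB5+ it was -0.18 and for i.v. ABCB5+ -0.08. When each animal's trend with length was removed, the difference of Pkd1 in CoCM in limma on log2 CPM went from -0.28 to -0.02 and that of Sec61b from 0.19 to 0.0042. Sec63 turned from -0.08 to 0.06.

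Pkd2 kept part of its difference without the length trend. It was then -0.21 ± 0.078, with an adjusted p of 0.376 in limma, against -0.32 in limma on the same values before the removal. In i.p. ABCB5+ the difference was -0.15 and in i.v. ABCB5+ -0.16 after the removal. For CoCM against the cells, Pkd2 was then at -0.05, Pkd1 at 0.06 and Sec61b at 0.05. Ganab and Dzip1l were at 0.14 and 0.13 in CoCM, with adjusted p of 0.621 and 0.566. The part that length has in the differences was not tested beyond this removal.

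**Figure D3:**
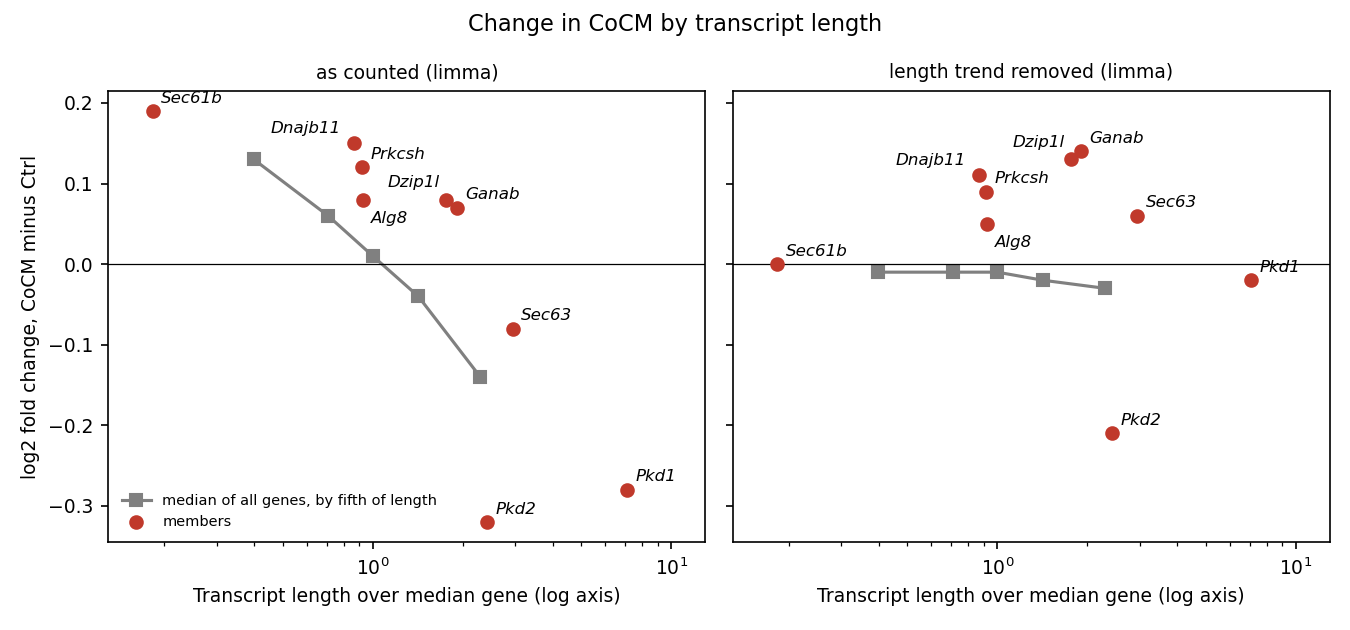
Log2 fold change of CoCM against Ctrl (vertical axis) against transcript length relative to the median gene (log axis), for the 9 genes and for the median of all genes in 5 classes of length, as counted and with the length trend removed (both limma on log2 CPM). Pkd1 moves from -0.28 to -0.02 and Sec61b from 0.19 to 0.0042, while Pkd2 goes from -0.32 to -0.21.

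Pkd1 and Pkd2 were also low in the animals that stood apart, in every treated group that held one. In the 4 animals that stood apart, Pkd2 was 104 CPM in CoCM 39, 110 CPM in i.p. 38, 117 CPM in i.v. 36 and 102 CPM in i.v. 37. These were the 4 lowest of all 24, where the other 20 ran from 117 to 170 CPM with a median of 138. Pkd1 was 66.7, 67.8, 79.9 and 71.5 CPM in the same animals, and 3 of the 4 were below the range of the others, 74.3 to 140 CPM. Across the genes tested, 14.2% had these 4 as their 4 lowest.

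Ganab went the other way on the CPM scale. It had 419, 453, 430 and 426 CPM in the same 4 animals, all above the range of 307 to 382 CPM in the other 20, as 10% of genes tested had these 4 as their 4 highest. Dnajb11, Prkcsh and Sec63 each had 2 of the 4 above the range of the others. In TPM, Pkd1 and Pkd2 had the 4 animals as their 4 lowest, where Pkd1 in CPM had 3 of them among its 4 lowest. In TPM, 0 of the 4 were among the 4 highest for Ganab, Prkcsh and Sec63. The median log2 difference of the 4 from the other 20 went from 0.31 in CPM to 0.09 in TPM for Ganab, and it turned from 0.17 to -0.09 for Prkcsh and from 0.22 to -0.09 for Sec63. This shift was common to all the genes, since the difference was lower in TPM than in CPM for each of them. For Pkd1 it went from -0.61 to -0.94 and for Pkd2 from -0.37 to -0.59. With the length trend removed from log2 CPM, the 4 were the 4 highest for Ganab and for Sec63. The share of all genes with such patterns was computed in CPM only, not in TPM or without the length trend. The ratio of Pkd2 to Ganab, which no scaling of the library touches, was 0.188 to 0.214 in the 4 animals and 0.272 to 0.373 in the other 20. Since the 4 were the 4 lowest for Pkd2 and the 4 highest for Ganab in CPM, the ratio of this pair had to set them apart. It is therefore no separate support.

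Markers of several cell types moved with these 4 animals. The proximal tubule sum was 8800 to 15700 CPM, against 2430 to 7890 CPM in the other 20, the fibroblast sum 195 to 598 CPM against 785 to 3280 CPM, and the macrophage sum 40.4 to 124 CPM against 192 to 543 CPM. Their part in the levels of Pkd1, Pkd2 and Ganab was not tested. Without the 4 animals, the difference of Pkd2 between CoCM and Ctrl was -0.29 with an adjusted p of 0.207, and that of Pkd1 was -0.21 with an adjusted p of 0.492. Ganab in CoCM went from 0.07 to 0.01.

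**Figure D4:**
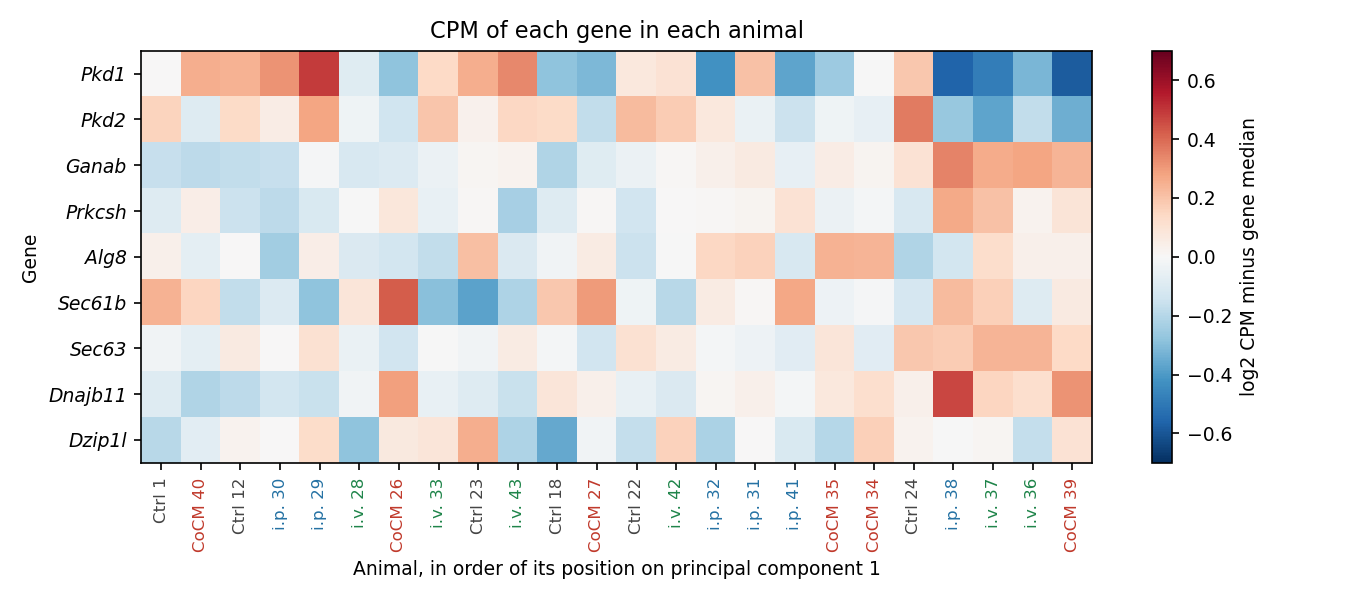
CPM of the 9 genes in each animal as log2 difference from the gene's median (colour), with animals ordered by principal component 1 and labels coloured by group. At the right end, i.p. 38, i.v. 37, i.v. 36 and CoCM 39 are low for Pkd1 and Pkd2 and high for Ganab, with 419 to 453 CPM.

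Some pairs of the genes also varied together among the other 20 animals, taken as 1 set without regard to group. Over 36 pairs, 9 had a Pearson correlation of log2 CPM past an adjusted p of 0.05 (permutation test, 100000 permutations), 2 positive and 7 negative. Differences between the groups enter these values. The share among all pairs of genes was not computed, so the counts are a description of these genes alone. The closest pair was Pkd2 and Sec63, with r = 0.85 (p = 2e-05, adjusted p = 0.00072) and rho = 0.85 (p = 1e-05, adjusted p = 0.00036, the raw p being the smallest the permutations can give). Without the 2 animals farthest from the median of Pkd2, r was 0.77, and among the 6 controls alone it was 0.89. Values within the treated groups, which held fewer of these animals than Ctrl, are not given. Over all 24 animals the rho of Pkd2 with Sec63 was 0.11.

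Pkd1 ran against Sec61b, with r = -0.72 (p = 0.00047, adjusted p = 0.00846) and rho = -0.7 (p = 0.00076, adjusted p = 0.00547), and r was -0.73 without the 2 farthest animals and -0.82 in the controls. It also ran against Dnajb11, with r = -0.68 (p = 0.00071, adjusted p = 0.00852) and rho = -0.72 (p = 0.00055, adjusted p = 0.00547), and r was -0.75 without the 2 farthest animals and -0.66 in the controls. The polycystins themselves were less closely related, with r = 0.52 (p = 0.0203, adjusted p = 0.0731) and rho = 0.43 (p = 0.0619, adjusted p = 0.171), and r was 0.51 without the 2 farthest animals and 0.05 in the controls. With the length trend removed, 0 of the 36 pairs passed an adjusted p of 0.05 by Pearson's r and 1 by Spearman's rho, Ganab with Dnajb11, with r = 0.64 (p = 0.00227, adjusted p = 0.0817) and rho = 0.7 (p = 0.00085, adjusted p = 0.0306), and r was 0.56 without the 2 farthest animals and 0.75 in the controls. Pkd2 with Sec63 was then at r = 0.56 (p = 0.0115, adjusted p = 0.138) and rho = 0.53 (p = 0.0177, adjusted p = 0.129).

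**Figure D5:**
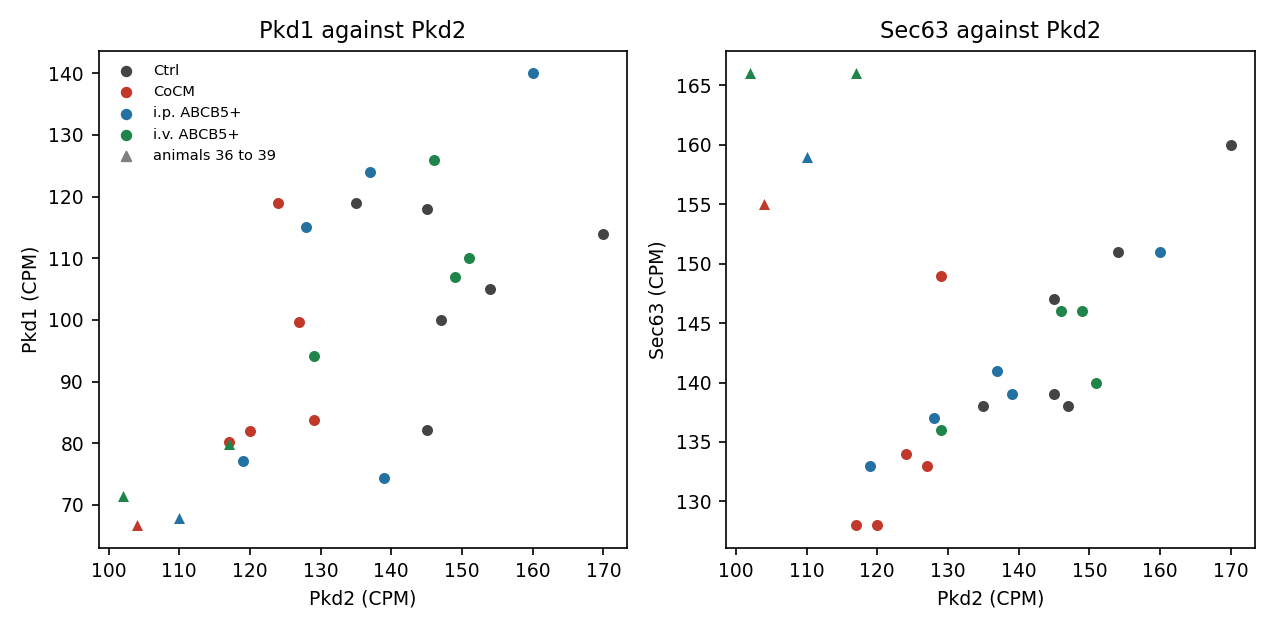
CPM of Pkd1 (left) and Sec63 (right) against CPM of Pkd2 in each animal, coloured by group, with triangles for animals 36 to 39. The 4 triangles lie at the low end for both polycystins, whereas for Sec63 they lie high, at 155 to 166 CPM, away from the line of the other 20 (r = 0.85).

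The genes whose pattern over the 24 animals was most like that of a polycystin were other genes. For Pkd1 they were Eif4g3, a translation initiation factor, with a Spearman rho of 0.98, Akap13 with 0.94 and Notch2, a receptor, with 0.94, and over the other 20 animals these were 0.96, 0.91 and 0.91. For Pkd2 they were Tmx1, a thioredoxin-like protein of the ER membrane, with 0.88, Mical2 with 0.87 and Pik3ap1 with 0.87, and 0.81, 0.81 and 0.79 over the other 20. Pkd2 ranked 1125 among the genes by likeness to Pkd1, with rho 0.65, and 0.43 over the other 20. The points share library, depth and the 4 animals that stood apart, and rho is given as a description.

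Relatives of the polycystins and fibrocystin were scarce in these kidneys. Of 7 listed, 4 were in the files and 2 had enough reads to be tested. Pkdrej and Pkd2l1 had medians of 0.0146 and 0.0522 TPM, and Pkhd1l1, a long relative of fibrocystin, 0.0616 TPM. Pkd2l2, a channel related to polycystin-2, had a median of 0.861 TPM and a range from 0.0883 to 4.18 TPM. In CoCM its log2 fold change was 1.25 ± 0.65, from 1.05 ± 0.989 CPM in Ctrl to 2.54 ± 1.33 CPM (mean ± SD, n = 6), with an adjusted p of 0.441.

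Other genes of the same pathways were described from lists written for this purpose, and in CoCM against Ctrl 0 genes of any list passed an adjusted p of 0.05 in edgeR. Over the 6 lists, 12 of 105 tested genes, or 11.4%, were past an unadjusted p of 0.05, near the background of 11.9%. Among 27 tested genes that build or transfer the sugar chain, 4 were higher and 0 lower at an unadjusted p of 0.05 (background 5.96% in each direction), with a median of 0.13. Alg12, a mannosyltransferase, had the smallest p, with 0.25 ± 0.087 and an adjusted p of 0.323. Dpm3 at 0.38 ± 0.14 and Ost4 at 0.27 ± 0.11, named after their values were seen as were the further genes of small counts, were also among the higher ones, and with the length trend removed they were at 0.15 and 0.07. Among 12 tested genes of the calnexin cycle, which trims sugars with glucosidase II, 0 passed in either direction and the median was -0.01. Uggt1, which tags misfolded proteins for another round, had 38.9 ± 9.43 CPM in CoCM and 53.1 ± 17.5 CPM in Ctrl, a difference of -0.45 ± 0.24 with an adjusted p of 0.446.

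Among 27 tested genes of the translocon and the ER chaperones, 2 were higher and 0 lower at an unadjusted p of 0.05, and the median was 0.07. Sec61g, the gamma subunit of the channel that holds Sec61b, had 75.1 ± 11.2 CPM in CoCM and 56.8 ± 5.9 CPM in Ctrl, a difference of 0.4 ± 0.13 with an adjusted p of 0.319, and 0.18 with the length trend removed. The other was Sec62, at 0.26 ± 0.12, and 0.21 with the length trend removed. Among 24 tested genes of the transition zone and ciliary membrane traffic, 3 were higher and 2 lower, with a median of 0.02. Ift20, which carries polycystin-2 from the Golgi towards the cilium, was at 0.38 ± 0.11 with an adjusted p of 0.224. B9d1 at 0.31 ± 0.1 and Tmem216 at 0.33 ± 0.095, both transition zone genes, were the other higher ones, and Cep290 at -0.26 ± 0.12 and Rabep1 at -0.19 ± 0.08 the lower ones. With the length trend removed, in limma, Ift20 was at 0.28, Tmem216 at 0.24, B9d1 at 0.16, Rabep1 at -0.14 and Cep290 at -0.06.

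Of 13 tested other genes of cystic disease, 0 were higher and 1 was lower at an unadjusted p of 0.05, with a median of 0.09. The lower one was Bicc1, an RNA-binding protein, with 83.2 ± 23.1 CPM in CoCM and 126 ± 31 CPM in Ctrl, a difference of -0.6 ± 0.27 with an adjusted p of 0.396. In the i.p. ABCB5+ comparison, 1 of the 105 genes, or 0.952%, was past an unadjusted p of 0.05 (background 1.77%), Sec61g at 0.29 ± 0.13 with an adjusted p of 0.978 in edgeR. In the i.v. ABCB5+ comparison 6 of the 105 were, or 5.71%, a share near the background of 5.78%, each with an adjusted p of 0.673 in edgeR. Those with positive differences were Anks6, a ciliary protein, at 0.43 ± 0.15, Pkd2l2, a relative of Pkd2, at 1.69 ± 0.65, Alg1 at 0.31 ± 0.15 and Gga1 at 0.17 ± 0.072, and those with negative ones Alg6 at -0.18 ± 0.069 and Tmem231 at -0.17 ± 0.074. Beside these differences, 1 of 59 tested cell type markers was higher and 5 were lower at an unadjusted p of 0.05 in CoCM, or 1.69% and 8.47% (background 5.96% in each direction). Of 8 proximal tubule markers 2 were lower, with Slc5a12 at -1.07 ± 0.36 and an adjusted p of 0.321 and Slc5a2 at -0.73 ± 0.32, while the median of the 8 was 0.08 and their summed level had a median of 4730 CPM in CoCM and 3790 CPM in Ctrl. Of 5 endothelial markers 2 were lower, with Cdh5 at -0.66 ± 0.25 and Kdr at -0.44 ± 0.18, and of 5 podocyte markers 1 was lower, Synpo at -0.77 ± 0.29. Of 6 markers of collecting duct principal cells 1 was higher, Avpr2 at 0.43 ± 0.2, and 0 markers of the other 9 cell types passed. The part of these cell types in the values of Pkd2 was not tested.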

How the data were processed

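Left kidney RNA of 24 animals was read on a BGI sequencer. Per the labels, the submitters' processing notes name Trim Galore 0.6.4, kallisto 0.4.6 and the rat build rn6, and the annotation is not given in the sources used here. The study's methods name human gene models and DESeq2. For each animal the authors deposited estimated counts, not normalized, and TPM, scaled by them to transcript length and library total. Groups came from the labels.

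Estimated counts were rounded. After filterByExpr, 12778 genes were scaled by TMM and fitted over 24 samples in edgeR 4.0.16 (R 4.3.3) with the quasi-likelihood F-test, in place of DESeq2, and Benjamini-Hochberg adjustment over all genes. Confidence intervals are at 95%. Exact permutation tests used log2 CPM (prior count 2). DESeq2 1.42.0 and limma 3.58.1 were used for alternatives: limma on TPM with a pseudocount of 1 or 0.1, with quality weights, and, chosen after seeing the data, on log2 CPM with and without a lowess trend on implied length. The code was tested on simulated counts. Correlations used SciPy 1.17.1 and NumPy 2.4.6.

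The members and lists were chosen with earlier results of these data known. Named beside the members were the smallest p of each list in CoCM against Ctrl, and the 3 genes most like Pkd1 and Pkd2. Symbols came from the RefSeq table of GRCr8, which held 17179 of 17334 identifiers. A floor of 3 counts is 0.322 CPM in the smallest library, for counting error only, since the reads carry no molecular identifiers. The values of 1 gene of the glycan synthesis list are not reported here.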

Additional observations from a re-analysis of the deposited data

Results flagged for a closer look

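Dnajb11, the co-chaperone of BiP, had 163 CPM in i.p. ABCB5+ animal 38, while the other 5 animals of that group had 106 to 121 CPM. The gap to the next animal was 0.733 of the group's range, above Dixon's 95% limit for 6 samples. The same animal is 1 of the 4 that stood apart on the first principal component. Of 36 sets of 6 values examined, for 9 genes in 4 groups, 1 exceeded the limit where chance would give about 1.8.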

How the results depend on the processing

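No paired analysis was possible because no animal number occurs in more than 1 group. Of 310 values of single genes under other settings, 276 stayed on the same side of 0 and of the threshold, 1 passed it (Pkd2 in CoCM with quality weights, -0.28) and 33 changed sign, and of 390 with 1 animal left out, 18 changed sign and the others kept both. On both TPM scales the median of all genes in CoCM against Ctrl was shifted to about -0.1, and there Ganab was at -0.04, Alg8 at -0.02 and Dzip1l at -0.03 in CoCM, Dzip1l at -0.03 and Alg8 at -0.05 and -0.06 in i.p., and Dnajb11 at -0.05 and Sec63 at -0.04 in i.v. ABCB5+. With the length trend removed, Sec63 was at 0.06 in CoCM and 0.02 in i.p., Sec61b and Alg8 at -0.02 in i.p., Dzip1l at 0.02 in i.v., and Pkd1 at 0.06 in CoCM against cells. With quality weights, Pkd1 was at 0.05, Dnajb11 at -0.03, Sec63 at -0.02 and Dzip1l at 0.12 in i.v., and Dzip1l was at 0.002 in limma on log2 CPM. Without animals 36 to 39, Pkd1 was at 0.0024 in i.p. and 0.03 in i.v., and Dnajb11 and Sec63 at -0.04 in i.v., while Pkd1 and Alg8 exchanged ranks 8 and 9. Alg8 in i.p. was at -0.0026 in DESeq2, -0.01 with median-ratio factors, -0.0039 without the low-count filter and -0.0025 with only the groups compared. None of these values was called, and the cause was not tested.

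Leaving out 1 animal turned the sign in i.p. of Alg8 (-0.04 to 0.04), Dzip1l (-0.03 to 0.09), Dnajb11 (-0.0042 to 0.12, negative without animal 38) and Sec61b (-0.0018 to 0.13), and in i.v. of Alg8 (-0.07 to 0.02), Dzip1l (-0.07 to 0.05), Dnajb11 (-0.0046 to 0.07) and Sec61b (-0.13 to 0.01). Pkd2 in CoCM stayed between -0.35 and -0.28, with adjusted p from 0.196 to 0.586.

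The count of all genes past an adjusted p of 0.05 in CoCM against Ctrl, 1 in edgeR, was 75 in DESeq2, 183 with quality weights and 0 with limma on either TPM scale, without animals 36 to 39 or with only the groups compared, and 0 to 31 with 1 animal left out, the highest without Ctrl 23. The other counts, 0 in edgeR with 226 to 894 genes at an unadjusted p under 0.05, were in DESeq2 1 for i.p., 1 for i.v., 2 for i.p. against i.v., 3 for CoCM against cells and 10 over the 4 groups, with quality weights 2 and 1 for the last 2, and 0 to 1 over the 4 groups with 1 animal left out. With 6 animals a group, the standard errors of 0.069 to 0.18 limit which differences could be seen.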
